A study of Homo sapiens with 6 samples.

Results

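The AP-1 transcription factor family was followed here through 10 genes chosen by name, JUN, JUNB, JUND, FOS, FOSB, FOSL1, FOSL2, ATF3, MAFF and MAFK, out of 29790 genes in the deposited table. All 10 had a line in the table, and all 10 passed the filter of at least 1 FPKM in at least 3 libraries. RNA came from A375, an established human melanoma line kept in RPMI1640 with serum, in 2 groups of 3 libraries. Control cells were left untreated, and the treated cells received 3 µM fluvastatin, a statin that inhibits the first committed enzyme of the mevalonate pathway, for 24 h. The labels name no genetic change in either group, and a single cell line was used. The labels speak of triplicates but do not state whether each came from its own culture, so every p-value below speaks for the scatter of these 6 libraries alone, and that scatter may be technical.

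AP-1 is a dimer of basic leucine zipper (bZIP) proteins that binds short palindromic DNA elements. JUN proteins can pair with themselves or with FOS proteins, while FOS proteins need a partner such as a JUN protein to bind DNA. ATF3 is a stress-induced bZIP protein that pairs with JUN proteins, and the small MAF proteins MAFF and MAFK lack a transactivation domain and pair with CNC factors such as NRF2 and BACH1. FOS and JUN genes are classical immediate early genes downstream of ERK, JNK and p38 kinases. FOSL1, whose protein is FRA-1, is known to be kept high by ERK signalling in BRAF-mutant melanoma.

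Levels are in FPKM, a fragment number divided by transcript length and by library size, which allows different genes to be set side by side. Each gene was tested with limma on log2(FPKM + 1) over all 14344 genes that passed the filter, and "rose" or "fell" is used for a Benjamini-Hochberg adjusted p below 0.05. Log2 fold changes refer to log2(FPKM + 1), so that those of low genes come out too small, and folds are ratios of mean FPKM. Judged from the steps between low values, depth relative to control replicate 0 was 0.965 to 1.18 in the other controls and 1.27 to 1.51 in the fluvastatin libraries, so depth and treatment cannot be told apart. Melanoma markers summed to 525 to 581 FPKM in controls and 591 to 623 FPKM with fluvastatin, with MITF at 6.10 to 7.77 FPKM over all 6 libraries, PMEL below 1 FPKM and MLANA and TYR not analysed here. Markers of other cell types summed to 31.9 to 36.6 and 54.9 to 59.2 FPKM. CD68 and KRT14 rose among them, and KRT14 passed the filter only through the treated libraries. EPCAM and CDH5 were at most 0.125 FPKM, and PTPRC, CD3E and ALB were not analysed here. Of the melanoma markers 7 were tested, and 3 did not pass. SOX10 rose 3.09-fold, CSPG4 2.45-fold and NGFR 1.54-fold, and PRAME fell 1.67-fold, while AXL, at 305 to 343 FPKM, made up most of the sum and did not pass. Of the markers of other cell types 3 were tested, of which 2 rose and 1 did not pass. The part of these markers in the results below was not tested.

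Fluvastatin was followed by higher transcript levels of all 3 JUN genes, of ATF3 and of both small MAF genes, while the most abundant member, FOSL1, and its relative FOSL2 did not pass the test. Of the 10 members 7 rose and 0 fell, against 14.1% of all genes tested that rose and 13.6% that fell, 27.7% in either direction. The members were chosen with earlier results of these data known, so this count is not independent evidence. No member fell at an unadjusted p below 0.05 either. The median log2 fold change of the members was 0.83, against -0.01 over all genes tested. In 7 members all 3 fluvastatin libraries lay above all 3 controls, where 21.9% of all genes tested did so, and in 0 members did they lie below, where 22.9% of all genes did. JUN, JUND and ATF3 rose by at least 1 on the log2 scale, as did 2.69% of all genes tested. JUND rose most (3.54-fold), followed by ATF3 (2.77-fold), JUN (2.34-fold), JUNB and MAFF (both 1.97-fold), MAFK (1.70-fold) and FOS (1.54-fold). These are bulk RNA values, in which a change in the share of cells that express a gene and a change in RNA per cell cannot be told apart.

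**Figure D1:**
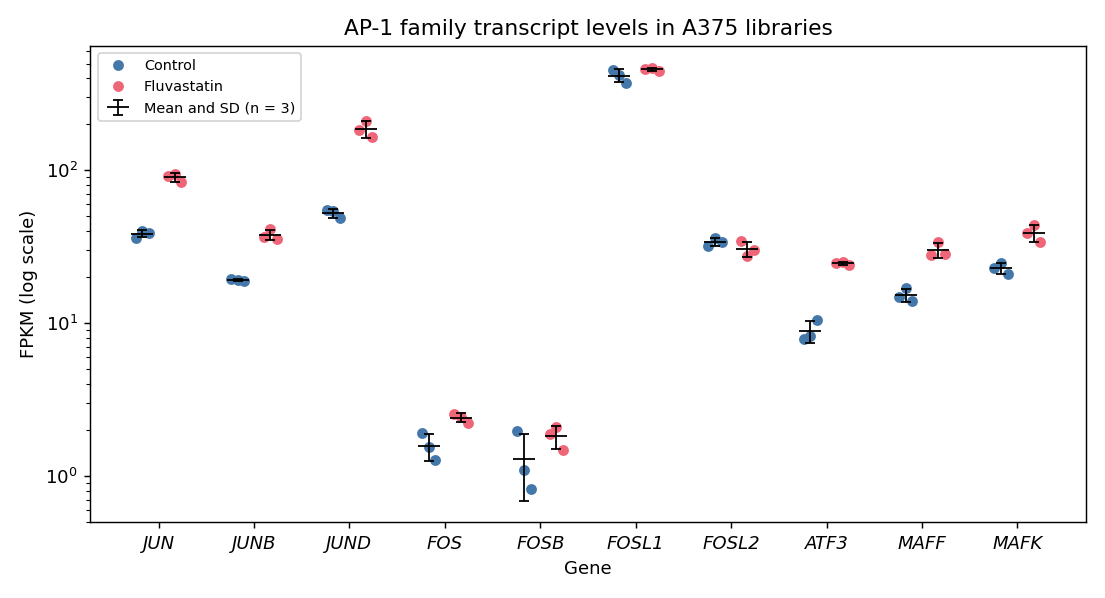
FPKM of the 10 AP-1 genes on a log axis, with 1 point per library, 3 control libraries in blue and 3 fluvastatin libraries in red, and black marks for the mean and SD. The fluvastatin points of JUN, JUNB, JUND, FOS, ATF3, MAFF and MAFK sit above all of their controls, those of FOSB, FOSL1 and FOSL2 overlap the controls, and FOSL1 lies highest at 373 to 469.7 FPKM.

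JUN proteins are the usual partners of FOS proteins in AP-1, and JUND, often described as the member that is present in resting cells, was the most abundant of the 3 JUN genes. JUND (ENSG00000130522.5; GRCh38 chromosome 19, 18279760 to 18281622, minus strand, 1 exon) was at 55.1, 54.4 and 48.6 FPKM in control libraries 0, 1 and 2, and the fluvastatin libraries in the same order held 183, 211 and 166 FPKM. Every treated library was far above every control, and treated replicate 1 was the highest. On the log2 scale the difference was 1.80 ± 0.12 (SE; adjusted p = 3.50e-04), which ranked 74 from the highest among the 14344 genes tested.

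JUN (ENSG00000177606.6; chromosome 1, 58780788 to 58784327, minus strand, 1 exon), the prototype of the family and a target of JNK, was at 36.3, 40.3 and 38.9 FPKM in the controls and at 92.5, 94.4 and 83.6 FPKM with fluvastatin. The log2 fold change was 1.21 ± 0.09 (SE; adjusted p = 5.45e-04). JUNB (ENSG00000171223.5; chromosome 19, 12791496 to 12793315, plus strand, 1 exon), a weaker activator than JUN at many promoters, was at 19.4, 19.3 and 18.9 FPKM in the controls and at 36.8, 41.3 and 35.4 FPKM in the treated libraries. JUNB differed by 0.94 ± 0.09 on the log2 scale (SE; adjusted p = 0.00121). In both genes the groups stood apart, and the controls were close together. HOOK2, annotated on the opposite strand across the whole of JUNB, was at 6.20 to 7.75 FPKM in controls and 7.85 to 8.73 FPKM in treated libraries, and since no strand setting is stated, HOOK2 and JUNB reads there cannot be told apart.

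ATF3 (ENSG00000162772.16; chromosome 1, 212565334 to 212620777, plus strand, 4 exons in its longest coding transcript) was at 7.92, 8.22 and 10.5 FPKM in the controls and at 24.9, 25.0 and 23.9 FPKM with fluvastatin. The treated libraries were close together and all above the highest control. The log2 fold change was 1.38 ± 0.12 (SE; adjusted p = 8.02e-04).

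Both small MAF genes rose. MAFF (ENSG00000185022.11; chromosome 22, 38200767 to 38216511, plus strand) was at 14.9, 16.9 and 13.9 FPKM in the controls and at 27.8, 33.7 and 28.5 FPKM in the treated libraries. That gave a log2 fold change of 0.93 ± 0.12 (SE; adjusted p = 0.00278). MAFK (ENSG00000198517.9; chromosome 7, 1530714 to 1543043, plus strand) was at 22.8, 24.8 and 21.1 FPKM and at 39.0, 44.0 and 33.8 FPKM, with a log2 fold change of 0.73 ± 0.12 (SE; adjusted p = 0.00733). The third small MAF gene, MAFG, was not among the 10 and was at 17.5 ± 0.884 FPKM in controls and 21.4 ± 1.29 FPKM (SD, n = 3) with the drug, which did not pass (adjusted p = 0.0607). Parts of MAFF and MAFK overlap PLA2G6 and TMEM184A on the opposite strand, which were at 3.52 to 6.47 and 0.727 to 1.86 FPKM over all libraries.

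Among the FOS genes only FOS itself passed, at a low level. FOSL1 (ENSG00000175592.8; chromosome 11, 65892049 to 65900573, minus strand) stood at 453, 424 and 373 FPKM in the controls and at 462, 469.7 and 449 FPKM with fluvastatin. The lowest treated library fell inside the control range, and the log2 fold change of 0.15 had a 95% interval of -0.09 to 0.39 (adjusted p = 0.317). FOSL2 (ENSG00000075426.11; chromosome 2, 28392448 to 28417312, plus strand), which encodes FRA-2, was at 32.1, 36.2 and 34.1 FPKM in the controls and at 34.2, 27.5 and 30.3 FPKM in the treated libraries. The groups overlapped, with a log2 fold change of -0.15 and a 95% interval of -0.41 to 0.11 (adjusted p = 0.338). Both intervals end short of the 0.94 and 1.21 of JUNB and JUN, but smaller shifts lie inside them.

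FOS (ENSG00000170345.9; chromosome 14, 75278774 to 75282230, plus strand), whose transcript is short-lived and spikes after serum or stress, was at 1.90, 1.54 and 1.27 FPKM in the controls and at 2.56, 2.44 and 2.23 FPKM after 24 h of fluvastatin. FOS differed by 0.42 ± 0.11 on the log2 scale (SE; adjusted p = 0.0375). The groups did not overlap, but the call rested on single libraries. FOS missed the threshold when control replicate 1 (0.0965) or 2 (0.0787) was left out, and likewise for fluvastatin replicate 0 (0.114), 1 (0.0953) and 2 (0.0707). Over 16 alternatives its adjusted p ran from 0.0207 to 0.42, and 7 were below the threshold. FOSB (ENSG00000125740.13; chromosome 19, 45467995 to 45475179, plus strand) was at 1.97, 1.09 and 0.817 FPKM in the controls and at 1.89, 2.09 and 1.47 FPKM in the treated libraries. Control replicate 0 lay within the treated range, and the log2 fold change of 0.32 ± 0.19 (SE; 95% interval -0.14 to 0.79) did not pass (adjusted p = 0.265), whereas without that library it did (0.0491). The whole of FOSB lies inside ERCC1 on the opposite strand, which was at 139.6 FPKM in control replicate 0 and at 102 to 123 FPKM in the other 5 libraries. The part of ERCC1 reads in the FOSB values was not tested.

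**Figure D2:**
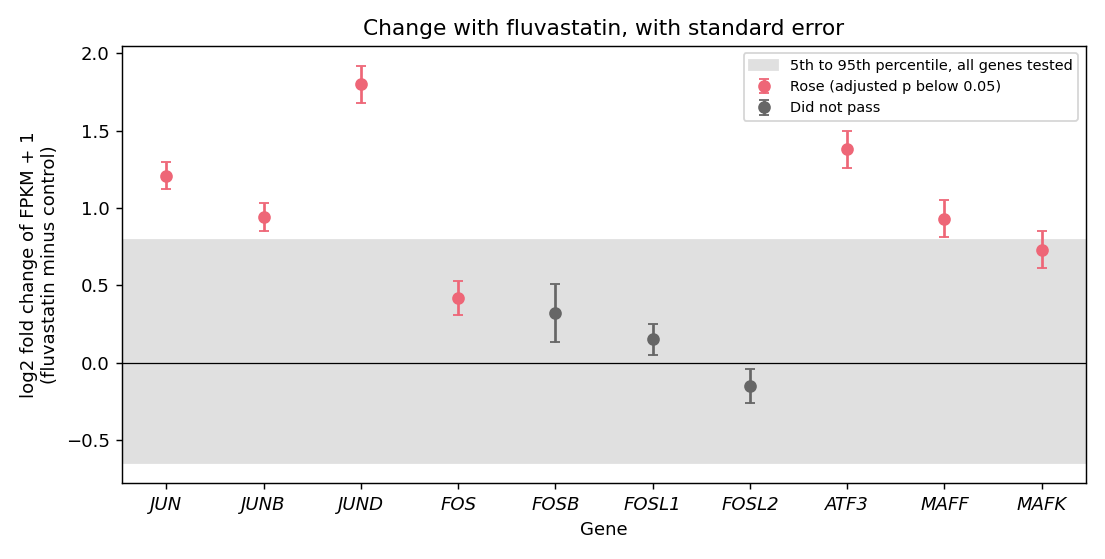
Log2 fold change of each AP-1 gene, fluvastatin minus control, on the log2(FPKM + 1) scale, with the standard error as bars; red points rose, grey points did not pass, and the grey band spans the 5th to 95th percentile of all genes tested, -0.65 to 0.80. JUND, ATF3, JUN, JUNB and MAFF lie above the band, MAFK and FOS inside it with adjusted p below 0.05, and FOSL1 and FOSL2 on either side of 0.

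The size of the rises was also fitted with depth in the model. With the relative depth of each library as a covariate, 0 of the 10 members passed, against 0.342% of all genes tested that were called higher and 0.0837% lower, and 5 members were higher at an unadjusted p below 0.05 in limma, as were 10.5% of all genes tested. The fitted changes in that model were 1.59 ± 0.24 for JUND (adjusted p = 0.0679), 1.56 ± 0.25 for ATF3 (0.072), 1.12 ± 0.20 for JUN (0.0904) and 0.83 ± 0.20 for JUNB (0.124), with SE. For FOS the change was 0.42 ± 0.26 (0.42), the same size as without depth. ATF3 came out larger than without depth, and MAFF and MAFK smaller, at 0.55 ± 0.19 (0.205) and 0.47 ± 0.24 (0.353). The standard errors were larger for all 7. Among the 3 fluvastatin libraries, replicate 1, the deepest, held the highest value of 8 of the 10 members. Replicate 2 held the lowest value of 8, and replicate 0 was the shallowest of the 3. The part of depth in this order was not tested. Base composition was also compared, since JUNB, JUND, FOSL1 and MAFK transcripts are 60% to 69.7% GC. Of 1729 protein-coding genes tested with at least 60% GC 20.0% rose, against 14.4% of 9977 genes with less. After a correction for transcript GC content and length, chosen after the data were seen, the same 7 members rose, with log2 fold changes of 1.73 for JUND, 1.18 for JUN and 0.88 for JUNB. JUN, JUNB and JUND have 1 exon each, and of 292 such genes tested 13% rose.

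**Figure D3:**
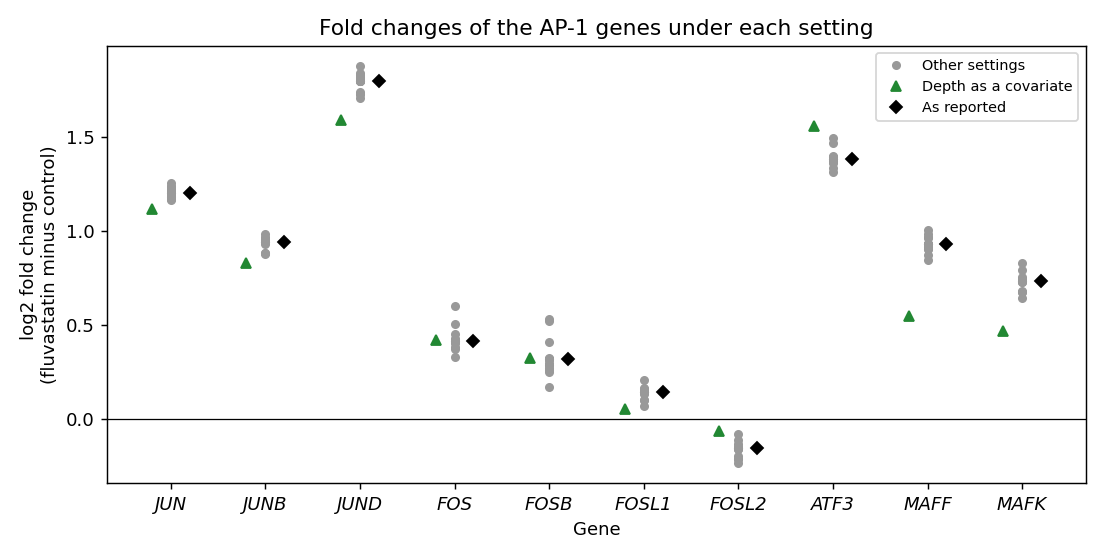
Log2 fold change of each AP-1 gene, fluvastatin minus control, under the reported setting (black diamonds), with depth as a covariate (green triangles) and under the other settings tried (grey points, including each library left out in turn). No gene changes sign, and with the depth covariate MAFF goes from 0.93 to 0.55, MAFK from 0.73 to 0.47 and ATF3 from 1.38 to 1.56.

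JUN transcripts made up more of the family with fluvastatin. Summed over JUN, JUNB and JUND, the level was 111, 114 and 106 FPKM in the controls and 312, 346 and 285 FPKM with fluvastatin, 2.85-fold higher on average. Summed over FOS, FOSB, FOSL1 and FOSL2, it was 489, 463 and 409 FPKM in the controls and 500.3, 502 and 483 FPKM in the treated libraries, which overlap. Transcripts of FOS genes therefore outnumbered those of JUN genes 4.11 ± 0.290 to 1 in controls and 1.58 ± 0.126 to 1 (SD, n = 3) with fluvastatin, per length. No treated library came near a control in this ratio (exact two-sided permutation p = 0.1, the smallest that 3 against 3 libraries can give; 0.156 after Benjamini-Hochberg adjustment over 14 quantities). FOSL1 made up 91.2% to 92.6% of the FOS sum in controls and 92.3% to 93.6% with the drug, and the ranges overlap.

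Within the JUN genes JUND held the largest share, 47.7% ± 2.04 in controls and 59.2% ± 1.42 (SD, n = 3) with fluvastatin. JUN went from 34.9% ± 1.95 to 28.8% ± 1.31 and JUNB from 17.4% ± 0.430 to 12.1% ± 0.325, although both rose in level. With JUND left out, the share of JUN over JUN and JUNB was 3.75 percentage points higher with the drug, so the direction of the JUN share depends on JUND. Among the small MAF genes MAFF held 27.4% ± 1.22 of the sum over MAFF, MAFK and MAFG in controls and 33.2% ± 1.35 with the drug. MAFG held 31.5% ± 2.10 and 23.7% ± 1.05, and MAFK 41.2% ± 0.881 and 43.0% ± 1.99. The JUND, JUN, JUNB, MAFF and MAFG shares each gave the smallest exact permutation p of 0.1, which cannot pass the threshold in this design.

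**Figure D4:**
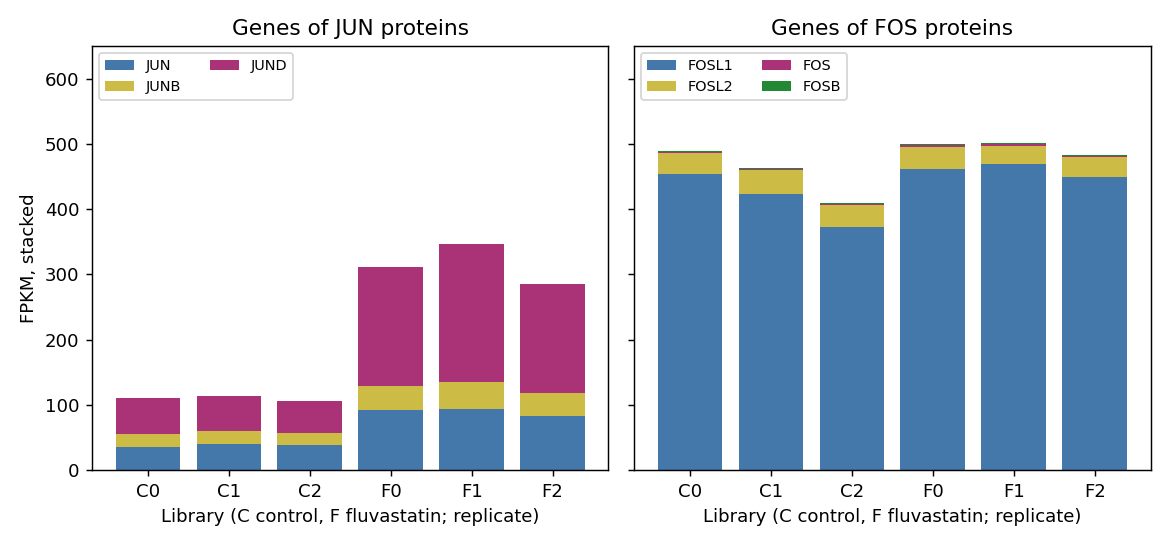
Stacked FPKM of the JUN genes (left) and the FOS genes (right) in each library, with C0 to C2 for control and F0 to F2 for fluvastatin replicates, both panels on the same scale from 0. The JUN sum goes from 106 to 114 FPKM in controls to 285 to 346 FPKM with fluvastatin, mostly through JUND, while the FOS sum, nearly all FOSL1, overlaps between groups.

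In order of level the control libraries ran from FOSL1 through JUND, JUN, FOSL2, MAFK, JUNB, MAFF and ATF3 to FOS and FOSB, and only the last pair of neighbours overlapped. In the treated libraries MAFK and JUNB moved ahead of FOSL2 in mean level. MAFK overlapped both JUNB and FOSL2 there, FOSL2 also overlapped MAFF, and the order was otherwise the same.

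Several members are known to bind and regulate their own promoters, so the promoter windows of those that rose together are shown. The windows are from RefSeq on GRCh38.p14 and span 250 bases before to 50 after a gene's start, and 8 of the 10 members matched, with 10 windows, FOSL1 and MAFK being without one. Both strands were searched for the AP-1 element TRE (TGACTCA, or TGAGTCA on the other strand), for the cyclic AMP element CRE (TGACGTCA, which reads the same on both strands), for the variant element of the JUN promoter (TGACATCA, or TGATGTCA) and for the CArG box of SRF. No match overlapped another. JUN and ATF3 held the variant, JUND and MAFF a CRE, and FOSL2 a TRE just past its start. The variant was searched for because it is the element of the JUN promoter, so the match in JUN was given in advance. In ATF3 and MAFF the match lay in 1 of 2 windows. JUNB, FOS and FOSB held none of the 4 in these windows. Only exact letters were searched, and bases further upstream were not, so these genes may still hold such elements. Of all 35116 windows 2.61% held the variant, 1.85% a CRE, 4.95% a TRE and 1.29% a CArG box. The 30 bases around each upstream match are given 5′ to 3′ on the gene's strand, with the match in capitals, for JUN (chr1:58784096-58784125, minus strand, inside the exon as GENCODE 29 draws it), ATF3 (chr1:212565273-212565302, plus strand, upstream of its exons), JUND (chr19:18281804-18281833, minus strand, upstream of its exon) and MAFF (chr22:38201929-38201958, plus strand, overlapping an exon of the gene).
JUN: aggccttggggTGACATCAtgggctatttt
ATF3: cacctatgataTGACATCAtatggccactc
JUND: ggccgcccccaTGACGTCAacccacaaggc
MAFF: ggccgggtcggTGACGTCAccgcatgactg
These 4 genes rose between 1.97-fold and 3.54-fold. Of the members whose windows held no match, JUNB rose 1.97-fold and FOS 1.54-fold, and FOSB did not pass. FOSL2, with a TRE, did not pass either. A match describes the letters only and does not show that a factor binds there.

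JUND had the largest rise, and the 250 bases before its start (chr19:18281623-18281872, minus strand) are shown whole with the CRE in capitals, which lies 200 to 193 bases before the start.
JUND: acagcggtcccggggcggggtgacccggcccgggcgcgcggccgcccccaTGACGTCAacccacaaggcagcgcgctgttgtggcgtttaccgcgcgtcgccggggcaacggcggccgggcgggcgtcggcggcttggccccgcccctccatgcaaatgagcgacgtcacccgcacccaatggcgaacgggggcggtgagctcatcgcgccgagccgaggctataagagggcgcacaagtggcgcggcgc

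Other bZIP genes that can pair with these members changed in both directions. Of 18 listed genes 17 were analysed and 11 passed the filter. Among these 2 rose and 2 fell, 7 had no call, and the median log2 fold change was 0.24, where 14.1% of all genes tested rose, 13.6% fell and the median was -0.01. CREB5, a CRE-binding protein that pairs with JUN, rose 3.13-fold, from 3.34, 3.63 and 4.37 FPKM to 13.1, 10.1 and 12.3 FPKM (log2 fold change 1.42 ± 0.13 SE; adjusted p = 0.00107). BACH1, a repressor that pairs with small MAF proteins, rose 1.53-fold from 43.0 ± 8.54 to 65.7 ± 9.47 FPKM (SD, n = 3; adjusted p = 0.0409). BACH1 missed the threshold when control replicate 1 (0.106) or 2 (0.0918) was left out, or fluvastatin replicate 0 (0.121) or 2 (0.105), and its adjusted p ran from 0.0181 to 0.121 over the alternatives. NFE2L3, a CNC partner of small MAF proteins, fell 1.58-fold from 34.9 ± 2.67 to 22.1 ± 2.54 FPKM (adjusted p = 0.00875). BATF3, a small bZIP protein that pairs with JUN proteins, fell 2.12-fold from 4.92 ± 0.995 to 2.32 ± 0.542 FPKM (adjusted p = 0.0158), but not once control replicate 1 was left out (0.0516; 0.00543 to 0.394 over the alternatives). NFE2L2, which encodes NRF2, was at 41.3 ± 3.64 and 40.5 ± 0.964 FPKM (adjusted p = 0.884), NFE2L1 at 96.5 ± 6.68 and 115 ± 15.3 FPKM (0.183) and ATF2, a JNK and p38 target, at 18.9 ± 2.90 and 23.1 ± 1.07 FPKM (0.136).

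Kinases that act upstream of AP-1 also changed in both directions. Of 27 listed JNK, p38 and ERK cascade kinases 26 were tested. Among these 4 rose and 2 fell, 20 had no call, and the median log2 fold change was 0.03. The share called was close to the 27.7% of all genes tested that were called in either direction. After the GC and length correction 2 kinases rose and 5 fell, so the balance of directions depended on the setting. With depth as a covariate 0 rose and 0 fell. The largest change was in MAP2K6, which encodes the p38 activator MKK6 and fell 3.67-fold from 4.42, 3.77 and 3.22 FPKM to 1.52, 0.873 and 0.707 FPKM (log2 fold change -1.25 ± 0.17 SE; adjusted p = 0.00375). Among the treated libraries only replicate 0 reached 1 FPKM, so whether MAP2K6 was tested depended on its control level. MAP3K1, a kinase upstream of JNK, fell 1.47-fold (adjusted p = 0.0143), but not once fluvastatin replicate 0 was left out (0.0558; 0.00666 to 0.399 over the alternatives). RPS6KA2 rose 1.71-fold, MAPK7 1.36-fold, MAP2K3 1.27-fold and RPS6KA4 1.26-fold, with adjusted p of 0.0331 to 0.0423. Each of these 4 calls was lost in at least 5 of the 6 fits that left out a library, with only MAPK7 and MAP2K3 kept without control replicate 1 and RPS6KA2 without control replicate 2. The ERK activating kinases MAP2K1 and MAP2K2 were at 69.1 ± 4.38 and 67.3 ± 1.02 FPKM and at 69.3 ± 9.16 and 72.6 ± 8.59 FPKM (adjusted p = 0.80 and 0.744), and RPS6KA3 was at 62.2 ± 6.58 and 71.2 ± 6.02 FPKM (0.253). These are transcript levels, and kinase activity was not measured.

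SRF, which drives FOS and other immediate early genes through CArG boxes, fell 1.32-fold, from 15.5, 15.7 and 14.5 FPKM to 10.9, 12.1 and 11.6 FPKM (adjusted p = 0.0199). SRF missed the threshold when control replicate 0 (0.0578) or 1 (0.0672) was left out, or fluvastatin replicate 0 (0.0722) or 2 (0.0572), with adjusted p from 0.0078 to 0.196 over the alternatives. None of the 5 listed SRF cofactors passed in limma, and 1, the ternary complex factor ELK3, was higher at an unadjusted p below 0.05, at 50.9 ± 2.61 and 61.3 ± 3.84 FPKM (adjusted p = 0.0753). ELK4 and ELK1 were at 43.8 ± 2.33 and 41.3 ± 1.25 FPKM and at 28.5 ± 2.21 and 25.5 ± 0.555 FPKM (0.511 and 0.258). Of 10 genes that govern JUN and FOS protein turnover 3 rose, 0 fell and 7 did not pass, with 1 lower at an unadjusted p below 0.05. Beside this list and that of SRF, 14.1% of all genes tested rose and 13.6% fell, 27.7% in either direction. The share called among the turnover genes was close to the last. TRIB1, a pseudokinase that docks the ubiquitin ligase COP1, rose 1.97-fold from 9.82 ± 0.961 to 19.4 ± 1.63 FPKM (adjusted p = 0.00225). GSK3B, a kinase that marks JUN for degradation, rose 1.35-fold from 38.3 ± 2.09 to 51.7 ± 3.05 FPKM (adjusted p = 0.0169). GSK3B missed the threshold when control replicate 1 (0.0582) was left out, or fluvastatin replicate 0 (0.0626) or 2 (0.0572), with adjusted p from 0.00632 to 0.214 over the alternatives. ITCH, a ubiquitin ligase of JUN proteins, rose 1.30-fold (adjusted p = 0.0463), and of the 6 fits that left out a library it passed in 1, without control replicate 2 (0.0235 to 0.181 over the alternatives). CSNK2A1, the most abundant of the 7 that did not pass, was at 60.8 ± 2.33 and 56.0 ± 3.48 FPKM (adjusted p = 0.364).

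Among genes described in textbooks as AP-1 targets, more were called higher than lower. Of 32 listed genes 25 were tested. Among these 13 rose and 3 fell, 9 had no call, and the median log2 fold change was 0.38, beside 14.1% of all genes tested that rose, 13.6% that fell and a median of -0.01. MMP1, the interstitial collagenase and a classical TRE-driven gene, was at 0.354, 0.675 and 0.522 FPKM in the controls and at 7.01, 5.66 and 7.12 FPKM with fluvastatin. This was 12.8-fold higher from a very low level (log2 fold change 2.32 ± 0.12 SE; adjusted p = 1.98e-04). MMP1 was the single listed target that also passed with depth as a covariate (0.0498). It passed the filter only through the treated libraries, so whether it was tested depended on its treated level. MMP10, a neighbouring stromelysin gene under the filter, was listed at 0 in 2 controls and at 0.0335 FPKM in the other, against 0.455 to 0.561 FPKM in the treated libraries. MMP9, also under the filter, was at 0.0297 and 0.0694 FPKM on average, with all treated libraries above all controls. MMP3, at 0.373 and 0.378 FPKM, and MMP13, at 0.0139 and 0.0180 FPKM, overlapped between groups. The part of depth in these low values was not tested.

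EZR, which links actin to the plasma membrane, rose 2.57-fold, from 96.8, 87.7 and 84.5 FPKM to 218, 234 and 238 FPKM (log2 fold change 1.35 ± 0.09 SE; adjusted p = 3.94e-04). TIMP1, an inhibitor of matrix metalloproteinases, rose 1.86-fold from 139 ± 10.5 to 258 ± 35.8 FPKM (SD, n = 3; adjusted p = 0.00419). AREG, a ligand of the EGF receptor, rose 1.79-fold (0.00279), the ferritin heavy chain gene FTH1 1.69-fold (0.00255) and the cytokine gene IL11 1.54-fold (0.00482). Some very abundant listed targets did not pass, among them HMGA1 at 935 ± 64.2 and 1146 ± 58.2 FPKM (0.0576), CD44 at 562 ± 23.5 and 579 ± 11.2 FPKM (0.728) and CCND1 at 255 ± 35.6 and 249.8 ± 38.9 FPKM (0.90).

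The 3 targets that fell, named after their values were seen, were PLAU, IL6 and KRT18. PLAU, the urokinase gene, fell 3.73-fold, from 3.82, 8.04 and 4.11 FPKM to 1.67, 1.53 and 1.08 FPKM (adjusted p = 0.0111), while its receptor PLAUR rose 1.44-fold from 76.3 ± 5.83 to 109.8 ± 4.33 FPKM (0.00896). IL6 fell 2.58-fold from 1.30 ± 0.258 to 0.505 ± 0.182 FPKM (0.0154). The call was lost without fluvastatin replicate 1 (0.0512) or 2 (0.0513), with 0.00617 to 0.488 over the alternatives. IL6 passed the filter only through the controls, so whether it was tested depended on its control level. KRT18 fell 1.26-fold (0.0457), and of the 6 fits that left out a library it passed in 1, without control replicate 2 (0.0137 to 0.243 over the alternatives).

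**Figure D5:**
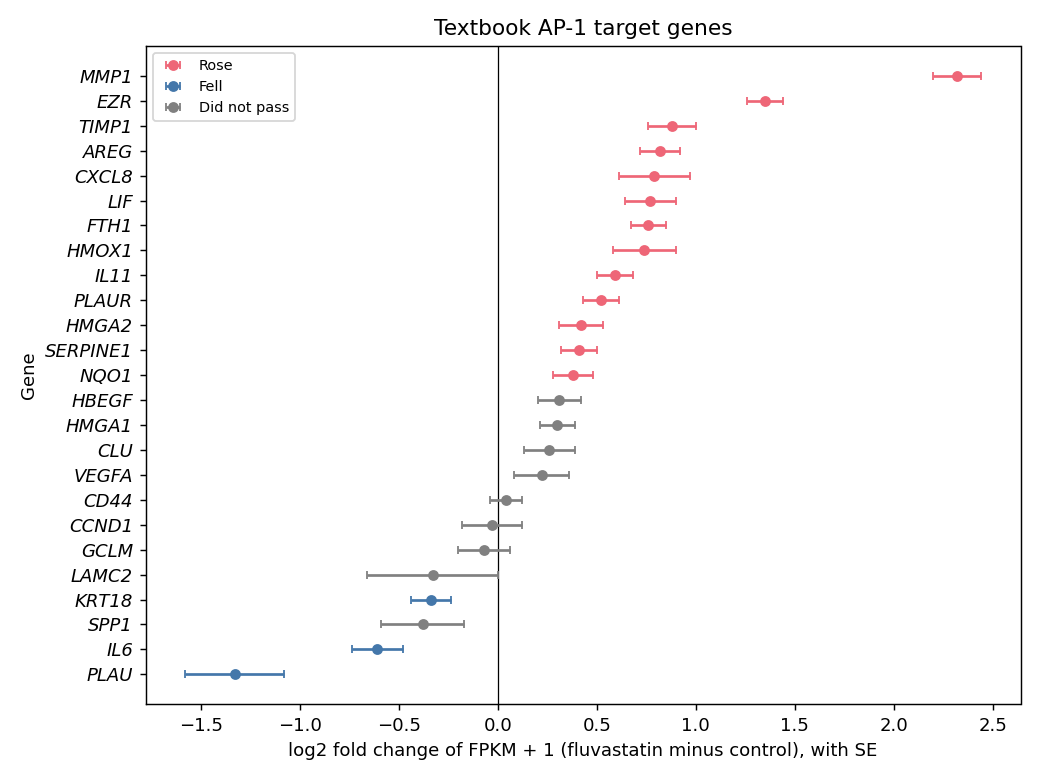
Log2 fold change, fluvastatin minus control, on the log2(FPKM + 1) scale with the standard error, for the 25 textbook AP-1 target genes tested, sorted by size; red points rose, blue points fell and grey points did not pass. MMP1 stands at the top with 2.32, followed by EZR with 1.35, and PLAU lies lowest with -1.33.

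Promoter windows were matched for 17 of the 32 targets. A TRE lay in those of PLAUR, CXCL8, IL11, EZR and GJA1 and a CRE in that of AREG, and of these 6 the 5 that were tested rose. CXCL8, the neutrophil chemokine interleukin-8, rose 1.77-fold (adjusted p = 0.0192). CXCL8 missed the threshold when control replicate 0 (0.0533) or 1 (0.0532) was left out, or fluvastatin replicate 1 (0.0549) or 2 (0.0601), with adjusted p from 0.00704 to 0.212 over the alternatives. Of the 9 tested targets whose windows held neither element 2 rose and 2 fell. Only the exact letters in these short windows were searched, so holding neither does not mean that a gene lacks an AP-1 site. Over all genes tested with a window, 19.9% of the 811 with a TRE or CRE rose, against 14.6% of the 8607 with neither. EZR had the largest change among the targets with a match, and the 250 bases before its start (chr6:158818236-158818485, minus strand) are shown with the TRE in capitals, 56 to 50 bases before the start.
EZR: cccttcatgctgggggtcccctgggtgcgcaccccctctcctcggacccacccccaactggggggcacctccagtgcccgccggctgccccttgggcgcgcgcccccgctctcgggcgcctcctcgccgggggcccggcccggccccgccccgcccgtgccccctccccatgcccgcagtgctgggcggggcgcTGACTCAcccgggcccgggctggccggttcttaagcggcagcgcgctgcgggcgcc
For comparison, the bases around the elements of IL11 (chr19:55370542-55370570, minus strand), CXCL8 (chr4:73740421-73740449, plus strand) and AREG (chr4:74445060-74445089, plus strand), all upstream of their exons, are given in the same way.
IL11: ggcagggagggTGAGTCAggatgtgtcag
CXCL8: aggaagtgtgaTGACTCAggtttgccctg
AREG: cggccgggcctTGACGTCAtgggctgcggc
The list of targets was written with earlier results of these libraries known, so its direction is not independent evidence.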

How the data were processed

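The deposited table gives each gene a value in each of the 6 libraries without naming its unit. The values were taken as FPKM as the authors' tools give it, since STAR, Cufflinks, Cuffdiff and hg38 are named per the submitters' processing notes. Their versions, the annotation release, the strand setting and any rescaling are not given in the sources used here. FPKM carries no counts, so absolute depth is unknown. Relative depth came from the commonest ratio between libraries among genes at 0 in at least 3 of them, and on simulated fragments it returned the set depths. Of 29790 genes, 29542 identifiers matched GENCODE release 29.

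A gene entered the test when 3 or more libraries reached 1 FPKM. The test was two-sided, in limma 3.58.1 under R 4.3.3 with trend and robust off and no block, on log2 of FPKM plus 1. On simulated data with 14344 genes and these groups the test called 32%, 90%, 98% and 100% of sets of 50 genes moved by 0.5, 1, 2 and 3 in log2. The moved genes were drawn only from the better expressed ones, so these shares do not speak for lower genes, among them FOS, FOSB and ATF3. The simulated scatter was normal, and far fewer genes were moved than were called in the data. Shares were compared with exact permutation tests (scipy 1.17.1). All 10 members are named, and of each other list up to 6 that passed, by adjusted p, and up to 3 of the highest that did not; others were named after their values were seen. Members and lists were chosen with earlier results of these data known. Alternatives were a pseudocount of 0.1, other filters, 2 other scalings, trend and robust on, a replicate block, depth as a covariate, protein-coding genes alone and each library left out; the GC and length correction was added after the data were seen. Results for some listed genes are not reported here.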

Additional observations from a re-analysis of the deposited data

How the results depend on the processing

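Most alternatives moved the member calls little. In every setting but depth as a covariate, 6 to 8 of the 10 members rose and 0 fell, and JUN, JUNB, JUND, ATF3, MAFF and MAFK passed in 16 of 17 alternatives each. Depth as a covariate, which uses up a degree of freedom and is close to the treatment, left 61 genes in all, 0 members that rose, and 1 target that rose and 0 that fell. In the kinase, other bZIP, SRF and turnover lists 0 genes rose and 0 fell in that setting. FOS was also lost with no filter (0.0639), with quantile normalization (0.0694) and with trend and robust on (0.0849). Leaving out a library gave 2340 to 3416 changed genes and 1 to 3 targets that fell. A mean of at least 5 FPKM left 1 target that fell, since fewer genes were tested. Without JUND the share of JUN differed by 3.75 points in place of -6.15, and the ratio of FOS to JUN transcripts differed by -4.00 in place of -2.52. Without FOSL1 that ratio differed by -0.223 and the FOSL2 share by -4.42 points in place of -1.38, and without MAFK the MAFF share by 11.8 points in place of 5.85; these follow from the smaller sums. The labels state no pairing of same-numbered libraries. Correlations of their deviations were -0.002, 0.085 and 0.084 for numbers 0, 1 and 2. Numbers 1 and 2 correlated best with their own number, and number 0 did not. With 3 libraries a group this cannot tell whether the groups are paired. With the replicate block 3154 genes changed, 7 members and 11 targets rose and 2 targets fell. Precision is limited by 3 libraries a group and, for FOS and FOSB, by their low levels.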

Other observations

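Some bZIP partners that were under the filter, and so not tested, lay higher with fluvastatin from very low levels, and those given here were named after their values were seen. MAF, a large MAF factor, was at 0.0734 ± 0.0548 FPKM in controls and 0.455 ± 0.0608 FPKM (SD, n = 3) in the treated libraries. MAFA was at 0.0487 ± 0.0224 and 0.155 ± 0.0868 FPKM. NFE2, a CNC partner of the small MAF proteins, was at 0.315 ± 0.313 and 1.11 ± 0.312 FPKM. In each of these 3 genes all treated libraries were above all controls, and the treated libraries were also the deeper ones, whose part in these values was not tested. NRL and BACH2 overlapped between groups.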
